A study of Mus musculus with 6 samples.

Results

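The genes described here build ribosomes: subunits and factors of RNA polymerase I (Pol I), small nucleolar ribonucleoprotein (snoRNP) proteins, and processing and assembly factors of the small and the large ribosomal subunit. They were taken from a list of 49 symbols chosen by function, with earlier results of these data known. Of these, 48 were found among the 19467 genes of the count table. They comprise 7 Pol I genes, 9 snoRNP and nucleolar genes, 19 small-subunit factors and 13 large-subunit factors. Noc2l was not analysed here. All 48 passed the filter on low counts, with 935 to 102402 reads per gene and library.

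Cells of the mouse embryonic stem (ES) cell line E14Tg2A, grown in serum with LIF, were nucleofected with 5 nmol of an antisense oligonucleotide (ASO), either the control named RC or one against LINE1. LINE1 elements are a family of retrotransposons whose transcripts are abundant in early embryos and ES cells. Both arms therefore share nucleofection and the selection of ASO-bearing cells, which were sorted by Lissamine fluorescence 48 h later. Each arm holds 3 libraries made with a directional mRNA kit, and the labels do not say that they came from separate cultures, so the p-values measure a spread between libraries that may be technical.

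Pol I transcribes the ribosomal DNA in the nucleolus into a long precursor RNA. Box C/D and box H/ACA snoRNPs modify that precursor, the small-subunit processome folds and cuts it, and a separate set of factors matures the large subunit. In ES cells, which divide fast, this pathway is highly active.

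The libraries held 19954026 to 31704616 gene-assigned reads. Levels are given as CPM (gene reads scaled to a common library total after TMM), and the TMM factors ran from 0.962 to 0.991 in the control arm and from 1.02 to 1.04 in the LINE1 ASO arm. The summed level of the 6 L1Md repeats, the mouse LINE1 families, was 7894, 3933 and 7784 CPM in the control libraries and 7223, 3277 and 6588 CPM in the LINE1 ASO libraries. The arms overlapped, with a log2 ratio of -0.21 (two-sided exact permutation p = 0.5, where 0.1 is the smallest possible with 3 against 3). Each LINE1 ASO library was below its numbered control, and the paired exact permutation p was 0.25, the smallest that 3 pairs allow, so read counts of the targeted RNA do not by themselves check the labels. Summed ES markers stood at 3005 to 3179 CPM in control and 2249 to 2595 CPM in LINE1 ASO libraries. Of the 6 ES markers, Pou5f1 passed the test as lower. Markers of fibroblast feeders summed to 38.3 to 52.3 CPM in control and 33.8 to 45.4 CPM in LINE1 ASO libraries, those of primitive endoderm to 6.61 to 7.70 and 8.77 to 10.8 CPM, and those of trophectoderm to 82.3 to 89.1 and 88.4 to 95.7 CPM. No marker gene in the table was at 0 in all 6 libraries. The 5 measured markers of 2-cell-like cells, a rare state of ES cell cultures, all passed as higher and summed to 3.96 to 5.26 CPM in control and 48.7 to 127 CPM in LINE1 ASO libraries. The part of these shifts in the results below was not tested.

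The 2 libraries numbered 2 stood apart for these genes. Replicate 2 was the lowest control library for 47 of the 48 genes and the lowest LINE1 ASO library for 45, beside 41.1% and 41.8% of all genes tested and 55.9% and 52% of the 4881 tested genes within the members' range of mean CPM. It was lowest in both arms for 45 members, beside 30.9% of all genes and 45.2% in the CPM range. Relative to the mean of the other 2 libraries of its arm, replicate 2 of a member stood at 0.648 to 1.10 in the control arm, with a median of 0.813, and at 0.683 to 1.20 in the LINE1 ASO arm, with a median of 0.855. All 48 together took 1.43%, 1.20% and 1.40% of the gene-assigned reads in the control libraries, in order of number, against 1.41%, 1.21% and 1.35% with the LINE1 ASO. Their summed share thus differed more between replicate 2 and the others than between the arms.

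**Figure D1:**
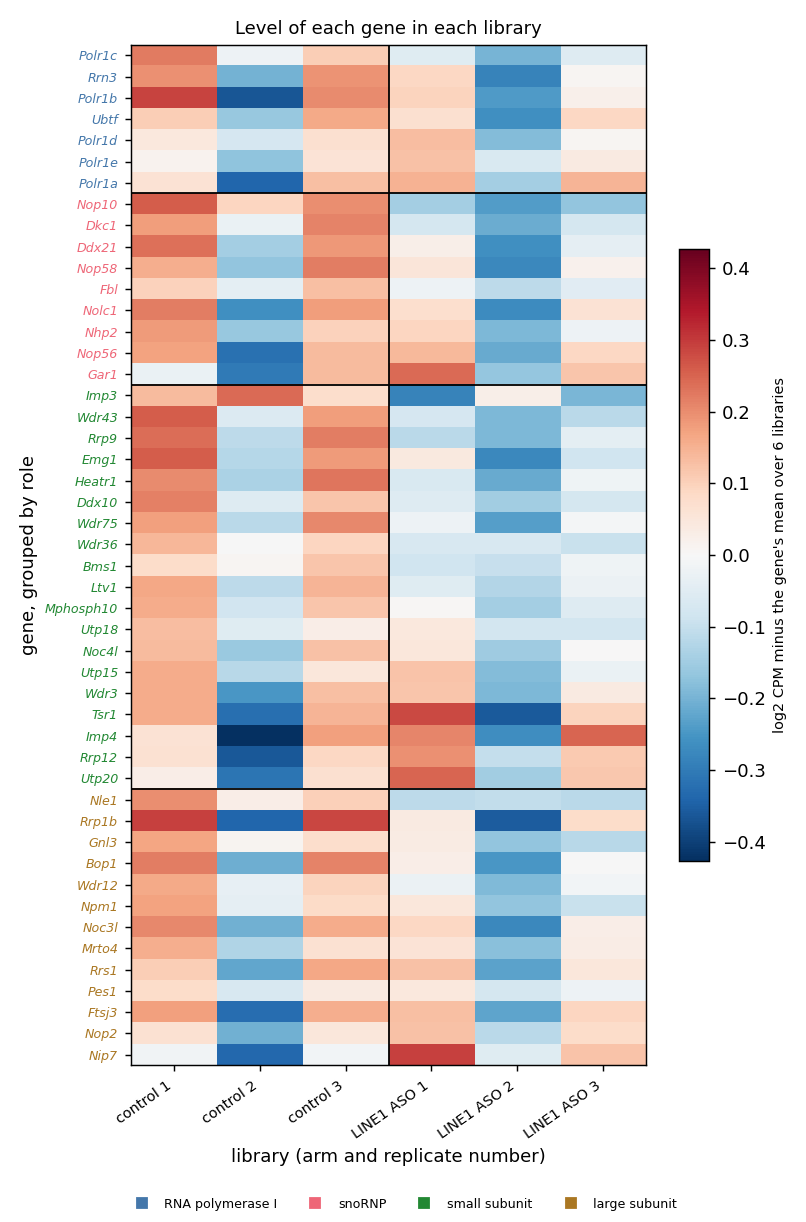
Log2 CPM of each gene in each of the 6 libraries, minus its mean over the 6, with control libraries left of the line and LINE1 ASO libraries right of it. Replicate 2 is the lowest library of both arms for 45 of the 48 genes, across all 4 roles.

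The question was whether the ribosome-building genes differ between the arms and whether they do so as a group. Only Nop10 passed, lower in the LINE1 ASO arm, and no member passed as higher. Genes were tested with edgeR's quasi-likelihood fit, and p-values were adjusted by Benjamini-Hochberg over all 14725 genes tested, with a threshold of 0.05. Among all genes, 1.17% passed as lower and 4.93% as higher, so 1 lower member of 48 is near the background, as it is beside the 2.91% lower and 1.99% higher among tested genes in the same CPM range. With DESeq2 the count of members was again 1 lower and 0 higher. DESeq2 called 3.97% lower and 6.76% higher of the 14725 genes tested with edgeR, and 9.14% and 2.79% in the CPM range. Of all 16447 genes with a DESeq2 adjusted p, it called 3.56% and 6.37%. At an unadjusted edgeR p under 0.05, 7 members were lower and 0 higher, beside 8.6% and 13.5% of all genes and 17.7% and 6.7% in the CPM range. The log2 fold changes of LINE1 ASO against control ran from -0.37 to 0.24 with a median of -0.12, against 0.01 over all genes tested, and 38 of the 48 lay below 0, against 49% of all genes and 65.2% of those in the CPM range. These signs depend on the scaling, since with plain library totals the medians were -0.03 for the members and 0.09 for all genes, and 28 members lay below 0, beside 34.9% of all genes and 44.8% in the CPM range; library totals left 1 lower and 0 higher member, beside 0.34% and 6.66% of all genes. In bulk RNA, fewer cells of a type and less RNA per cell cannot be told apart.

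**Figure D2:**
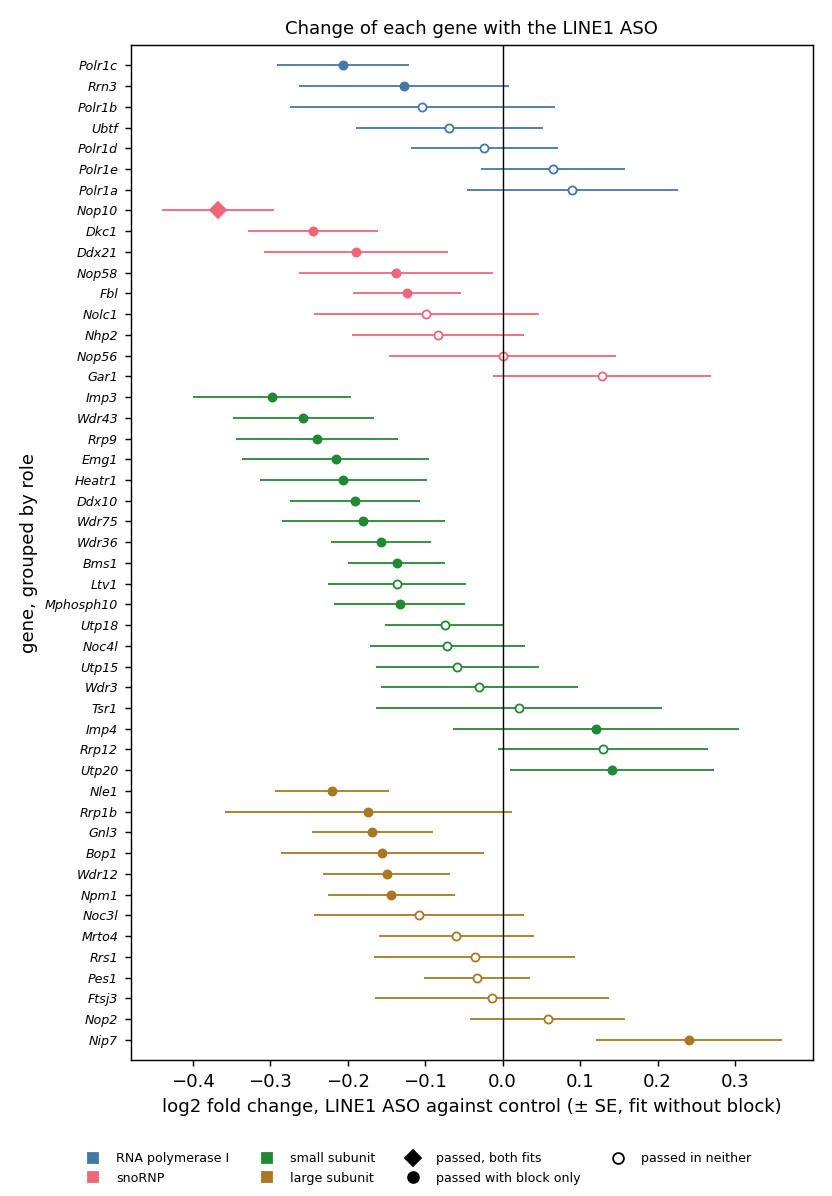
Log2 fold change of each of the 48 genes, LINE1 ASO against control, from the fit without the replicate block, with bars of 1 SE and colours for the 4 roles. Nop10, at -0.37, is the only gene that passed the test in both fits, and filled circles mark genes that passed only with the block.

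Libraries that share a number deviated together over all genes, with correlations of 0.522, 0.724 and 0.503, so a fit with the replicate number as a block is given beside the first. With the block, 23 members passed as lower and 3 as higher, and 22 did not pass. The background of that fit was far larger too, at 16.1% of all genes lower and 17.6% higher, and in the members' range of CPM at 31.6% lower and 11.9% higher. The median SE of the members' log2 fold changes was 0.11 without the block and 0.04 with it, while their median log2 fold change was -0.12 and -0.11. With the block and plain library totals, 8 members passed as lower and 7 as higher, beside 8.62% and 26.7% of all genes, so the balance of the members' calls and the background both moved with the scaling. Without both replicate 2 libraries and without the block, 15 members passed as lower and 0 as higher, beside 8.3% and 12.2% of all genes. With the block 26 and 2 did, beside 18.8% and 20.9%. For these fits, and for the block with library totals, shares in the members' CPM range were not computed. Whether the members stand apart from genes of similar level there was not tested.

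**Figure D3:**
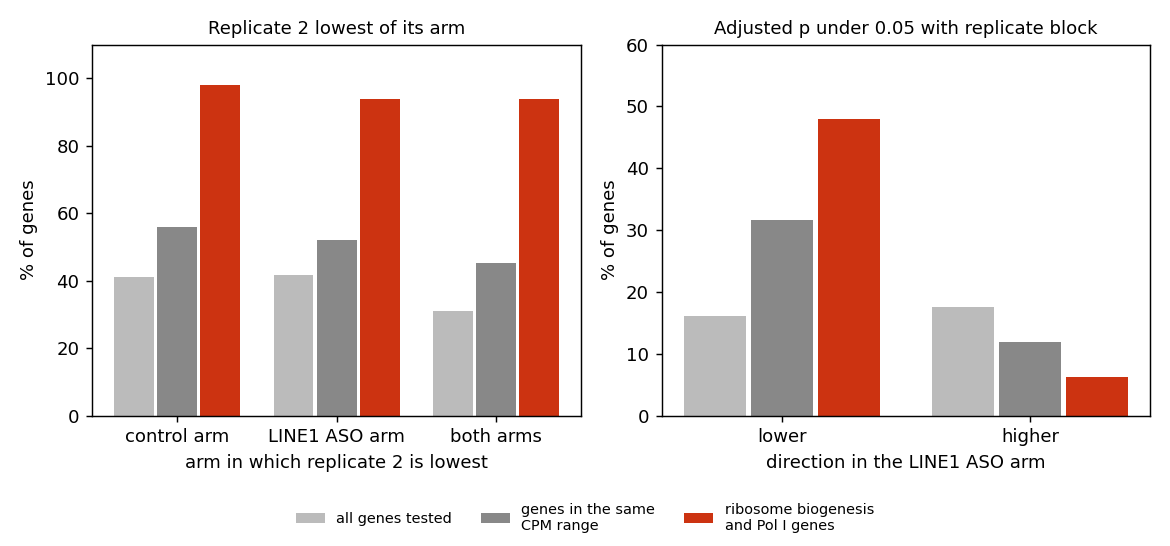
Left, share of genes in percent for which replicate 2 is the lowest library of the control arm, the LINE1 ASO arm or both; right, share that passed as lower or higher in the fit with the replicate block. Bars compare the 48 genes with all 14725 genes tested and with the 4881 in the same CPM range; 47.9% of the members passed as lower and 6.25% as higher.

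Taking each LINE1 ASO library over the control of the same number, 32 members were lower in all 3 ratios and 6 were higher in all 3. The shares over all genes were 30.5% and 32.8%, and in the members' CPM range 48.3% and 22.6%. The median log2 ratios of the members at numbers 1, 2 and 3 were -0.12, -0.07 and -0.13. Without regard to numbers, the LINE1 ASO libraries lay wholly below the controls for 9 members, beside 11.9% of all genes and 21.9% of those in the CPM range, and wholly above for 0, beside 16.8% and 8.75%. The 9 were Polr1c, Nop10, Dkc1, Wdr43, Ddx10, Bms1, Imp3, Wdr36 and Nle1.

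**Figure D4:**
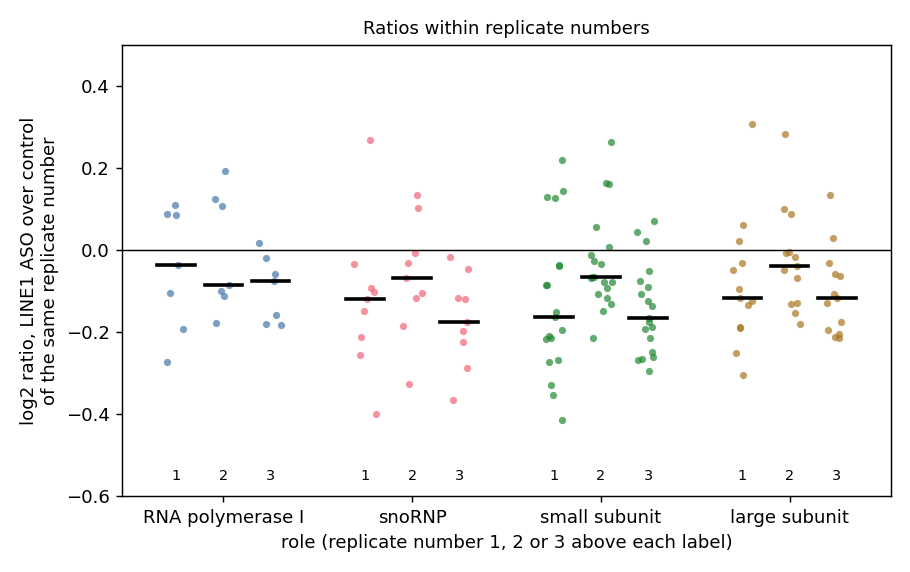
Log2 ratio of each gene, LINE1 ASO over the control library of the same replicate number, by role, with each point 1 gene at 1 number. The median of each role lies between -0.18 and -0.04 at every number.

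Of the 7 Pol I genes, none passed without the block and 2 passed as lower with it (28.6%), beside 16.1% of all genes and 31.6% in the CPM range, near that background. The block with library totals gave 0 lower and 1 higher, beside 8.62% and 26.7% of all genes. Their median log2 fold change was -0.07, which became 0.01 with plain library totals. Polr1a, the largest subunit of the enzyme, was at 295, 223 and 308 CPM in the control libraries, in order of number, and 312, 255 and 312 CPM with the LINE1 ASO. The arms overlapped, and the log2 fold change was 0.09 ± 0.14 (SE; edgeR adjusted p = 0.754). Polr1b, the second-largest subunit, was at 216, 137 and 203 CPM and then 189, 150 and 180 CPM. Its log2 fold change was -0.10 ± 0.17 (SE; edgeR adjusted p = 0.777), and replicate 2 was lowest in both arms. Polr1c, a subunit shared by Pol I and Pol III, was at 130, 109 and 119 CPM in control and 107, 96.7 and 107 CPM in LINE1 ASO libraries. All 3 LINE1 ASO libraries lay below the lowest control, with a log2 fold change of -0.21 ± 0.09 (SE; edgeR adjusted p = 0.21 without the block and 0.00626 with it). Polr1d, also shared with Pol III, was at 105, 96.7 and 107 CPM and then 112, 89.5 and 102 CPM. Polr1e, the Pol I subunit also called PAF53, was at 49.7, 43.7 and 51.2 CPM and then 53.7, 47.0 and 50.5 CPM. For both of these the arms overlapped, with log2 fold changes of -0.02 ± 0.09 and 0.07 ± 0.09 (SE).

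Rrn3, the factor that readies Pol I for initiation, was at 422, 320 and 421 CPM in control and 392, 302 and 371 CPM in LINE1 ASO libraries. The arms overlapped, yet each LINE1 ASO library was below its numbered control, and the log2 fold change of -0.13 passed only with the block (edgeR adjusted p = 0.64 without and 0.0306 with it). With 1 library left out and no block it lay between -0.27 (control replicate 2 left out) and -0.060 (LINE1 ASO replicate 2 left out). Ubtf, which binds and opens active ribosomal DNA, was at 280, 233 and 291 CPM and then 273, 217 and 276 CPM. Its difference passed in neither fit (edgeR adjusted p = 0.792 and 0.183).

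The snoRNP genes held the member with the clearest difference. Of the 9, 1 passed as lower without the block, and 5 as lower (55.6%) and 0 as higher with it. The shares with the block were 16.1% lower and 17.6% higher of all genes, and 31.6% and 11.9% in the CPM range. Nop10, a core protein of the box H/ACA snoRNPs that guide pseudouridylation, was at 112, 100 and 108 CPM in control and 85.0, 79.6 and 83.6 CPM in LINE1 ASO libraries. The highest LINE1 ASO library was below the lowest control, and the means were 107 ± 6.28 and 82.7 ± 2.78 CPM (SD, n = 3 each). The log2 fold change was -0.37 ± 0.07 (SE; edgeR adjusted p = 0.0313), and -0.37 ± 0.04 with the block (edgeR adjusted p = 2.64e-04). With 1 library fewer the log2 fold change stayed between -0.43 and -0.35, but the call was lost in 4 of the 6 fits: the edgeR adjusted p was 0.116 without control replicate 1, 0.109 without control replicate 3, 0.0744 without LINE1 ASO replicate 1 and 0.103 without LINE1 ASO replicate 3. It passed without either replicate 2, and over the alternatives the adjusted p ran from 7.67e-10 to 0.116, under 0.05 in 11 of 15. The lowest value came from the block fit without both replicate 2 libraries, which rests on fewer libraries and was chosen after seeing the data.

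Of the other H/ACA proteins, Dkc1 passed with the block and Gar1 and Nhp2 in neither fit. Dkc1, the pseudouridine synthase of the complex, was at 374, 324 and 382 CPM in control and 313, 285 and 313 CPM in LINE1 ASO libraries. These arms did not overlap either, and the log2 fold change of -0.24 ± 0.08 (SE) had an edgeR adjusted p of 0.137 without the block and 0.00121 with it. Gar1, the protein that aids release of the product, was at 65.6, 54.4 and 73.6 CPM and then 79.2, 59.7 and 72.7 CPM. Its arms overlapped, and the log2 fold change of 0.13 ± 0.14 (SE) passed in neither fit (edgeR adjusted p = 0.65 and 0.125), and it was -0.0041 without control replicate 2. Nhp2, which binds the RNA with Nop10, was at 196, 155 and 185 CPM and then 184, 151 and 170 CPM, also overlapping.

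Ratios within a library do not depend on scaling, and the following pairs were chosen after their values were seen, so they carry no test. The ratio of Gar1 to Nop10 was 0.584, 0.544 and 0.682 in control and 0.931, 0.749 and 0.870 in LINE1 ASO libraries. The ratio of Gar1 to Dkc1 was 0.175, 0.168 and 0.192 in control and 0.253, 0.210 and 0.232 in LINE1 ASO libraries. Both ratios were higher in every LINE1 ASO library than in any control.

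Of the box C/D proteins, which act in 2′-O-methylation, Fbl is the methyltransferase. It was at 321, 291 and 327 CPM in control and 295, 277 and 290 CPM in LINE1 ASO libraries, and its log2 fold change of -0.12 ± 0.07 (SE) passed only with the block (edgeR adjusted p = 0.351 and 0.0363). Nop58, a core scaffold protein, was at 617, 493 and 645 CPM and then 575, 459 and 562 CPM. Its log2 fold change was -0.14 ± 0.13 (SE; edgeR adjusted p = 0.578 without the block and 0.0195 with it). Nop56, its partner, was at 516, 368 and 504 CPM and then 505, 395 and 488 CPM, with equal means of 463 ± 82.3 and 463 ± 59 CPM (SD, n = 3 each). The ratio of Nop56 to Nop58 was accordingly 0.837, 0.746 and 0.781 in control and 0.878, 0.862 and 0.869 in LINE1 ASO libraries, without overlap. The arms overlapped for the ratios of Nop56 and of Nop58 to Fbl, whose log2 differences between the arms were 0.13 and -0.013. Reads of Nop56 and Nop58 carry a further limit, since their annotated spans hold 5 and 4 snoRNA genes. The spans of Wdr43, Gnl3, Tsr1 and Dkc1 hold snoRNA genes too, at 3, 3, 2 and 1. In addition, 19.7% of the 50-base sequences of Fbl and 18.7% of those of Nop56 also occur in other genes. Ddx21, a nucleolar RNA helicase, was at 839, 644 and 810 CPM and then 725, 594 and 693 CPM. It passed as lower only with the block (log2 fold change -0.18, edgeR adjusted p = 0.00405), and Nolc1, a snoRNP chaperone, passed in neither fit.

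Of the 19 small-subunit factors, none passed without the block, while 10 passed as lower (52.6%) and 2 as higher (10.5%) with it, beside 16.1% and 17.6% of all genes and 31.6% and 11.9% in the CPM range. The block with library totals gave 5 and 3, beside 8.62% and 26.7% of all genes. The 10 were Wdr43, Heatr1, Rrp9, Ddx10, Bms1, Imp3, Mphosph10, Wdr36, Wdr75 and Emg1, and the 2 were Utp20 and Imp4. Ltv1, Utp18, Noc4l, Utp15, Wdr3, Tsr1 and Rrp12 passed in neither fit. Of these, Tsr1 and Wdr3 overlap exons of opposite-strand genes along 32.3% and 16.2% of their exon bases.

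Wdr43 and Heatr1 belong to the early processome module that also links to Pol I transcription. Utp15, of the same module, passed in neither fit, with a log2 fold change of -0.06 ± 0.10 (SE; edgeR adjusted p = 0.796 and 0.311). Cirh1a and Nol11, module genes of the wider list described below, also passed in neither fit, with log2 fold changes of 0.01 and 0.11. Wdr43 was at 381, 306 and 361 CPM in control and 303, 279 and 294 CPM in LINE1 ASO libraries. The arms did not overlap, and the log2 fold change was -0.26 ± 0.09 (SE; edgeR adjusted p = 0.15 without the block and 0.00222 with it). Heatr1 was at 505, 400 and 514 CPM and then 419, 378 and 433 CPM, with a log2 fold change of -0.21 ± 0.11 (SE; edgeR adjusted p = 0.316 and 0.0067). Its LINE1 ASO replicates 1 and 3 lay above control replicate 2, so the arms overlapped. Utp20, a very long scaffold protein of the processome, was at 359, 283 and 369 CPM in control and 418, 317 and 381 CPM in LINE1 ASO libraries. Each LINE1 ASO library was above its numbered control, by 0.22, 0.16 and 0.04 on the log2 scale, and the log2 fold change of 0.14 ± 0.13 (SE) passed only with the block (edgeR adjusted p = 0.588 and 0.0278). Without the block it was 0.0080 when control replicate 2 was left out and 0.032 without LINE1 ASO replicate 1. The ratio of Utp20 to Heatr1 was 0.711, 0.709 and 0.717 in control and 0.996, 0.839 and 0.879 in LINE1 ASO libraries. This was the tightest of the control ratios examined, with means of 0.713 ± 0.00440 and 0.905 ± 0.0820 (SD, n = 3 each). As the extreme of pairs chosen after their values were seen, its small control SD is not a measure of precision.

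Imp3, Imp4 and Mphosph10 form a complex that, in yeast, helps pair the U3 snoRNA with the precursor. Imp3 was at 48.7, 52.6 and 46.8 CPM in control and 36.4, 45.2 and 38.8 CPM in LINE1 ASO libraries. Its replicate 2 was the highest library of both arms, and its log2 fold change was -0.30 ± 0.10 (SE; edgeR adjusted p = 0.137 without the block and 0.00338 with it). Imp4 was at 132, 94.2 and 143 CPM and then 146, 105 and 150 CPM, and its log2 fold change of 0.12 ± 0.18 (SE) passed only with the block (edgeR adjusted p = 0.758 and 0.0472). It was -0.063 without control replicate 2 in the fit without the block, and with both replicate 2 libraries left out the blocked call was lost (edgeR adjusted p = 0.112). The ratio of Imp4 to Imp3 was 2.72, 1.79 and 3.06 in control and 4.02, 2.33 and 3.87 in LINE1 ASO libraries. The arms of this ratio overlapped, since LINE1 ASO replicate 2 lay below control replicates 1 and 3, though each number was higher, by 0.56, 0.38 and 0.34 on the log2 scale. Rrp9, a U3-specific protein, was at 147, 115 and 145 CPM and then 115, 109 and 121 CPM, with a log2 fold change of -0.24 ± 0.10 (SE). Emg1, a methyltransferase of the small-subunit RNA, was at 154, 118 and 146 CPM and then 132, 106 and 121 CPM. Both passed as lower only with the block (edgeR adjusted p = 0.00857 and 0.00442).

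The remaining small-subunit genes that passed as lower with the block had smaller or similar differences. Bms1, a GTPase of the processome, was at 313, 298 and 322 CPM in control and 279, 277 and 293 CPM in LINE1 ASO libraries, without overlap. Wdr36, a scaffold protein, was at 260, 235 and 251 CPM and then 225, 225 and 221 CPM. Ddx10, a helicase, was at 167, 138 and 156 CPM and then 138, 129 and 136 CPM. In these 3 every LINE1 ASO library was below the lowest control, for Ddx10 by a margin that rounding hides (edgeR adjusted p with the block 0.0193, 0.0182 and 0.0115). Wdr75, from the same early module as Wdr43, was at 265, 217 and 271 CPM and then 232, 200.1 and 234 CPM, and Mphosph10 at 148, 125 and 144 CPM and then 133, 120 and 127 CPM. The arms of both overlapped, with edgeR adjusted p of 0.00739 and 0.0411 with the block. Among the genes that passed in neither fit, Rrp12, which acts in export of the precursors, had a log2 fold change of 0.13 ± 0.14 (SE; edgeR adjusted p = 0.0595 with the block), and the 6 others lay between -0.14 and 0.02.

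**Figure D5:**
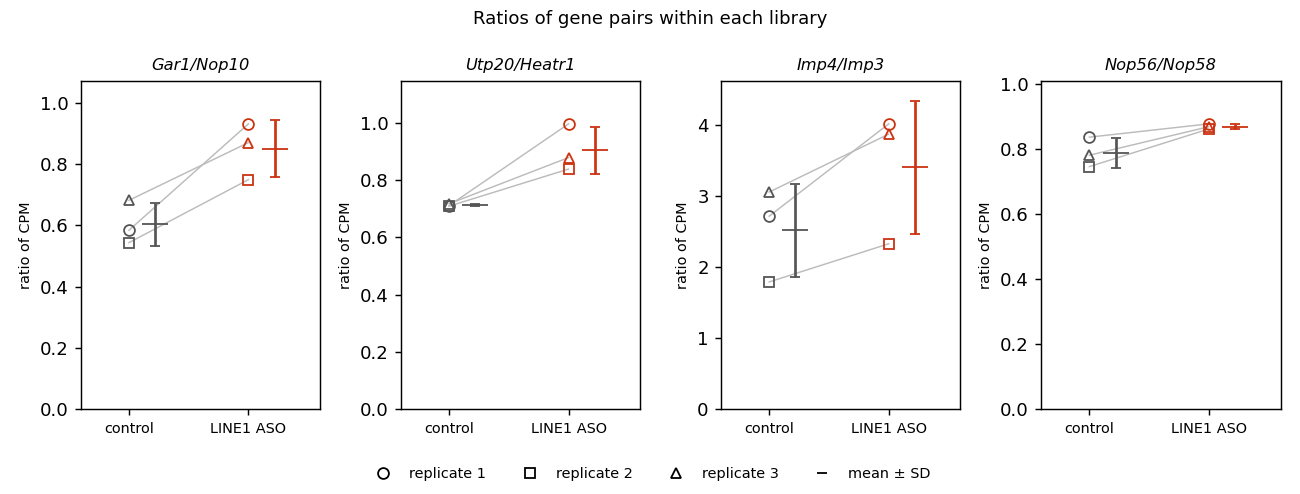
Ratio of the CPM of 2 genes within each library, for pairs of partner genes chosen after their values were seen, with a marker per replicate number and the mean ± SD of each arm. Gar1 over Nop10, Utp20 over Heatr1 and Nop56 over Nop58 were higher in all 3 LINE1 ASO libraries than in any control, while the arms of Imp4 over Imp3 overlapped.

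Of the 13 large-subunit factors, none passed without the block, while 6 passed as lower (46.2%) and 1 as higher (7.69%) with it, beside 16.1% and 17.6% of all genes and 31.6% and 11.9% in the CPM range. The block with library totals gave 0 lower and 2 higher, beside 8.62% and 26.7% of all genes. Wdr12, Bop1 and Pes1 form the PeBoW complex of large-subunit maturation. Pes1 was at 309, 279 and 301 CPM in control and 302, 278 and 289 CPM in LINE1 ASO libraries, a log2 fold change of -0.03 ± 0.07 (SE) that passed in neither fit (edgeR adjusted p = 0.828 and 0.541). Bop1 was at 220, 163 and 218 CPM and then 192, 159 and 188 CPM, and Wdr12 was at 157, 137 and 150 CPM and then 138, 123 and 139 CPM. These 2 passed as lower only with the block (edgeR adjusted p = 0.0308 and 0.0198). The ratio of Wdr12 to Pes1 was 0.509, 0.492 and 0.50 in control and 0.457, 0.444 and 0.483 in LINE1 ASO libraries, without overlap. That of Bop1 to Pes1 was 0.710, 0.584 and 0.727 and then 0.637, 0.572 and 0.653, and its arms overlapped. Pes1 shares 23.3% of its 50-base sequences with other genes.

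Npm1, the abundant nucleolar chaperone, had the highest level of all members, at 3442, 2973 and 3230 CPM in control and 3156, 2719 and 2858 CPM in LINE1 ASO libraries. Per kilobase of its principal transcript the control mean was 1969 ± 144 CPM (SD, n = 3), against 14.8 to 342 CPM per kilobase for the other members. These values depend on the lengths used, those of the longest principal transcript in GENCODE M21. The lowest value, that of Wdr12, rests on a length of 10012 bases. The log2 fold change of Npm1, -0.14 ± 0.08 (SE), passed only with the block (edgeR adjusted p = 0.36 and 0.0066), and 24.3% of its 50-base sequences occur in other genes. Gnl3, the nucleolar GTPase also called nucleostemin, was at 294, 264 and 276 CPM and then 268, 233 and 241 CPM, and passed as lower only with the block (edgeR adjusted p = 0.00723). Nle1, which acts in large-subunit maturation, was at 66.2, 58.8 and 62.0 CPM in control and at 53.4, 53.7 and 53.3 CPM in LINE1 ASO libraries. Its arms did not overlap, with a log2 fold change of -0.22 ± 0.07 (SE; edgeR adjusted p = 0.13 without the block and 0.0111 with it).

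Nip7, which acts in large-subunit assembly and precursor processing, had the largest log2 fold change above 0 of the members, 0.24 ± 0.12 (SE). It was at 197, 157 and 197 CPM in control and 244, 192 and 216 CPM in LINE1 ASO libraries. LINE1 ASO replicate 2 lay below control replicates 1 and 3, so the arms overlapped, but each number was higher, by 0.31, 0.28 and 0.13 on the log2 scale. It passed only with the block (edgeR adjusted p = 0.291 and 0.00287), and in the fit without the block the value was 0.12 when control replicate 2 was left out, or 0.13 when LINE1 ASO replicate 1 was. Rrp1b, a nucleolar protein, also passed as lower only with the block, and Noc3l, Mrto4, Rrs1, Ftsj3 and Nop2 passed in neither fit.

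Promoters from RefSeq, 250 bases before to 50 after the annotated start, were found for 42 of the 48 genes, as 50 sequences. They are shown for 3 genes that passed as lower with the block (Nop10, Imp3 and Wdr43) and for the 3 that passed as higher (Nip7, Utp20 and Imp4), in the GRCm38.p6 build, which is not the mm9 build of the counts. They lie at chr2:112261676-112261975 (plus strand, Nop10), chr9:56937250-56937549 (plus, Imp3), chr17:71615965-71616264 (plus, Wdr43), chr8:107056627-107056926 (plus, Nip7), chr10:88826765-88827064 (minus, Utp20) and chr1:34439579-34439878 (plus, Imp4). Capitals mark CACGTG, the E-box that MYC proteins can bind, or CCGGAAG, a core of ETS-family sites, on either strand.
Nop10: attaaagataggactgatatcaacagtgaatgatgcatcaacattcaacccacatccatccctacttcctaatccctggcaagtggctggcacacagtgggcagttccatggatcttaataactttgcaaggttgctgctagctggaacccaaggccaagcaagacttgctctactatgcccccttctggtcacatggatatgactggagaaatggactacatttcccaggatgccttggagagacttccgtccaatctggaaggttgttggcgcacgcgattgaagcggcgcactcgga
Imp3: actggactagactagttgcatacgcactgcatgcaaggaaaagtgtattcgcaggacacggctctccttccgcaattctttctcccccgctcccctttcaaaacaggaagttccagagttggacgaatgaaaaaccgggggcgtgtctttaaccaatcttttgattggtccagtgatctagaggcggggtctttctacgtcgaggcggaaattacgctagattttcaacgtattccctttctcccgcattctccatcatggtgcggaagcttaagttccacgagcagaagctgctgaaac
Wdr43: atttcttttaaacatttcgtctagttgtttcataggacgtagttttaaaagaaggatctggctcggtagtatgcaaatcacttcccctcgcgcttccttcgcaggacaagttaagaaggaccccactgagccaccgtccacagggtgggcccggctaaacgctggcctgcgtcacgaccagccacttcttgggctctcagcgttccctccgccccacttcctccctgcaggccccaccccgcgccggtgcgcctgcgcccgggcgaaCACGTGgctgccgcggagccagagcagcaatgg
Nip7: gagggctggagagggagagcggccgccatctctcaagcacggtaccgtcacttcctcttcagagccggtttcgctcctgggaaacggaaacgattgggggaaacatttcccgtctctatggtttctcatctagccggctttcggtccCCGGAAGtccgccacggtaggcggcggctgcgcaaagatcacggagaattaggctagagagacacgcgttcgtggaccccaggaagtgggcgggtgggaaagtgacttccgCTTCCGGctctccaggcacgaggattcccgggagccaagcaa
Utp20: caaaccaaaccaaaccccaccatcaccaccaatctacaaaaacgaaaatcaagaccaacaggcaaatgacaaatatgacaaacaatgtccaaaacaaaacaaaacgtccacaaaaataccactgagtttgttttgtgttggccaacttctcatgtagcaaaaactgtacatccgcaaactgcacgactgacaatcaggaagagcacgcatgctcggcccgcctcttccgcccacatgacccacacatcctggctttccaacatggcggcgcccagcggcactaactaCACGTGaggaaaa
Imp4: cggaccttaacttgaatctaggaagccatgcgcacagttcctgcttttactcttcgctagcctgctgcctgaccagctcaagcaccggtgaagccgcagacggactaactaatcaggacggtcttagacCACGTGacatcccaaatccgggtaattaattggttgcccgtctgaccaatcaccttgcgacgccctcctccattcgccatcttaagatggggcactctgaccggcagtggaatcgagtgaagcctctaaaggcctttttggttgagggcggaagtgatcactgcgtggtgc

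Some genes have several promoter sequences, and a gene was counted as holding a motif if any of them did. CACGTG was found for 10 of the 42 genes (23.8%), against 8.09% of all genes with a RefSeq promoter and 10.4% of those in the count table. CCGGAAG was in 18 of 42 (42.9%), against 9.93% and 14.8%, and CGCGAGA, searched as well on both strands, was in 5 of 42 (11.9%), against 2.92% and 4.68%. Of the 81 genes of the wider list described below that have a promoter, 16% held CACGTG, 43.2% CCGGAAG and 4.94% CGCGAGA. For CGCGAGA that is near the share in the count table. Matches of different motifs did not overlap in any member promoter. Median GC content, taken per sequence, was 59.84% in the member promoters and 52.67% over all promoters. Its part in the motif shares was not tested. By call, CACGTG was found for 3 of the 19 genes with a promoter that passed as lower with the block. It was found for 2 of 3 that passed as higher and 5 of 20 that passed in neither direction. The corresponding counts were 7 of 19, 1 of 3 and 10 of 20 for CCGGAAG, and 3 of 19, 0 of 3 and 2 of 20 for CGCGAGA. The higher group holds only 3 genes, and the calls moved with the scaling and the libraries used. Differences between these groups were not tested.

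Myc, a known activator of ribosome-building genes, was at 88.6, 45.0 and 81.8 CPM in control and 63.3, 39.1 and 59.7 CPM in LINE1 ASO libraries. It was lowest in replicate 2 of both arms, like 45 of the 48 genes, and its log2 fold change was -0.41 ± 0.27 (SE; edgeR adjusted p = 0.432 without the block and 0.00119 with it). Leaving out 1 library moved the Myc value between -0.68 (without control replicate 2) and -0.25 (without control replicate 1; -0.26 without LINE1 ASO replicate 2). Mycn, its relative, was at 251, 140 and 190 CPM and then 246, 169 and 185 CPM, and passed in neither fit (edgeR adjusted p = 0.923 and 0.415), its log2 fold change lying between -0.16 and 0.26 with 1 library left out. A relation of either to the members was not tested.

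Ncl, the major nucleolar protein nucleolin, was at 4036, 3721 and 4150 CPM in control and 3453, 3217 and 3540 CPM in LINE1 ASO libraries. The arms did not overlap, and the log2 fold change of -0.22 ± 0.07 (SE) passed only with the block (edgeR adjusted p = 0.109 and 5.58e-04). Reads assigned to Rn45s, the annotated ribosomal precursor RNA, stood at 7560, 3749 and 2769 CPM and then 2673, 2156 and 2125 CPM. Such counts do not tell the precursor from the mature ribosomal RNAs cut from it. Every LINE1 ASO library was below the lowest control, but the controls alone spread from 2769 to 7560 CPM, and the log2 fold change of -1.02 ± 0.33 (SE) passed in neither fit (edgeR adjusted p = 0.123 and 0.158). Without control replicate 1 it was -0.51. The libraries came from an mRNA kit, and how much of this RNA carried over into each was not tested.

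A wider list of 104 other ribosome biogenesis genes, all tested, carried the same comparison to further genes. Without the block 1 passed as lower and 1 as higher, beside 1.17% and 4.93% of all genes. With it 38 passed as lower (36.5%) and 6 as higher (5.77%). The shares with the block were 16.1% and 17.6% of all genes and 31.6% and 11.9% in the members' CPM range. The block with library totals gave 12 lower and 16 higher, beside 8.62% and 26.7% of all genes. The median log2 fold change without the block was -0.10. Nufip1, a snoRNP assembly factor, was the lower one, at 109, 105 and 106 CPM in control and 89.3, 88.4 and 81.8 CPM in LINE1 ASO libraries. Its log2 fold change was -0.30 ± 0.07 (SE; edgeR adjusted p = 0.0432), and the adjusted p was 0.146 without control replicate 1, 0.136 without control replicate 3, 0.103 without LINE1 ASO replicate 1 and 0.157 without LINE1 ASO replicate 3. Ubtfl1, an Ubtf-like gene of the preimplantation embryo, was the higher one, with 1, 3 and 1 reads in the controls, against 67, 28 and 33 reads with the LINE1 ASO. Its log2 fold change was 4.28 ± 0.56 (SE; edgeR adjusted p = 0.00738, and 0.0522 without control replicate 3). By role, the block gave 3 lower and 2 higher of 11 Pol I genes, 5 and 0 of 8 snoRNP genes, 13 and 1 of 35 small-subunit genes, and 17 and 3 of 50 large-subunit genes. In this list too replicate 2 was lowest in both arms for most genes, 87 of 104. The shares were 30.9% of all genes tested and 45.2% in the members' CPM range.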

How the data were processed

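The authors' tables hold raw counts for each gene and each repeat in each library, used as deposited. The submitters' processing notes name the mm9 build and the tools HTSeq 0.6.1p1, TopHat2 2.0.9, DESeq2 1.12.3 and R 3.3.0. How strand and multiply mapped reads were treated, and with which annotation, is not given in the sources used. Reads shared by similar or overlapping genes could therefore be lost or misassigned.

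The arms were compared in R 4.3.3 with edgeR 4.0.16 (limma 3.58.1): filterByExpr (minimum count 10, minimum total 15), TMM factors, robust quasi-likelihood F tests and Benjamini-Hochberg adjustment over all 14725 genes kept. The SE is the absolute log2 fold change over the root of the F statistic. Ratios within replicate numbers added 0.5 CPM to each value. The labels do not state that replicate numbers pair libraries; the pairing comes from correlated deviations of same-numbered libraries (0.522, 0.724 and 0.503; other pairs -0.570 to 0.251), so a fit with replicate number as a block is given. Other filters, library totals, RLE factors and DESeq2 1.42.0 were tried as alternatives, as were an adjusted p under 0.01 and leaving out libraries.

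Members and lists were chosen with earlier results of these data known. Described by value are each member that passed, the 2 with the largest change and the 2 with the smallest p per role, and a fixed panel of 14; further genes and all gene pairs were picked after their values were seen. Fits were also run on simulated counts with larger changes than those of the members and no effect of replicate number. That run does not test the block where such an effect is present, or changes as small as the members'. Exon overlap, snoRNA hosts and shared 50-base sequences come from GENCODE M21, which is not the build of the counts.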

Additional observations from a re-analysis of the deposited data

How the results depend on the processing

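Counts are lower and then higher calls. Against 173 and 726 of all genes, 1 and 0 members and 1 and 1 of the wider list, the block gave 2373 and 2591 genes, 23 and 3 members (2 and 0 Pol I, 5 and 0 snoRNP, 10 and 2 small-subunit, 6 and 1 large-subunit) and 38 and 6 of the wider list. The block with library totals gave 1269 and 3935 genes, 8 and 7 members (1 Pol I higher, 3 and 1 snoRNP, 5 and 3 small-subunit, 2 large-subunit higher), 12 and 16 of the wider list, and median log2 fold changes of 0.011 (Pol I), -0.040 (snoRNP), -0.050 (small subunit), -0.024 (large subunit), -0.032 (members) and -0.016 (wider list).

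Chosen after seeing the data, leaving out both replicate 2 libraries gave 1229 and 1810 genes, 15 lower members (1 Pol I, 3 snoRNP, 8 small-subunit, 3 large-subunit) and 26 and 3 of the wider list. With the block as well it gave 2786 and 3095 genes, 26 and 2 members (3 Pol I lower, 6 snoRNP lower, 11 and 1 small-subunit, 6 and 1 large-subunit) and 52 and 5 of the wider list. The block with library totals was also chosen then.

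Library totals gave 50 lower genes and 981 higher, 0 lower of the wider list, and medians of 0.014 (Pol I), -0.041 (snoRNP), -0.053 (small subunit), -0.025 (large subunit), -0.033 (members) and -0.019 (wider list). DESeq2 gave 585 lower genes, 7 lower of the wider list and a Pol I median of -0.0975. RLE factors gave 2 lower of the wider list. No filter gave 3 lower of the wider list and a Pol I median of -0.101, and a filter at 1 CPM left 0 higher of the wider list. At an adjusted p under 0.01, 4 and 169 genes, 0 lower members, 0 lower snoRNP genes and 0 lower of the wider list passed.

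Leaving out 1 library at a time gave 2 to 479 lower and 158 to 1041 higher genes. It gave 0 to 6 lower members (6 without control replicate 2, beside 3.18% of all genes). Of these, 0 to 2 were snoRNP and 0 to 4 small-subunit genes. Of the wider list, 0 to 15 were lower and 0 to 1 higher. Medians ran from -0.18 to 0.000107 (Pol I), -0.26 to -0.077 (snoRNP), -0.22 to -0.10 (small subunit), -0.22 to -0.040 (large subunit), -0.22 to -0.067 (members) and -0.21 to -0.048 (wider list). The L1Md log2 ratio ran from -0.56 to 0.11. The causes of these shifts were not tested.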
